A study of Mus musculus with 4 samples.

Results

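The features described here are the 12 mouse genes that were printed on many spots of each slide. They were taken as every probe, other than blank and randomized control spots, that occurred on 10 or more spots of an array. These were 12 of 16463 transcript probes, and each of them lay on 17 spots, whereas the other 16451 probes lay on 1 spot each. Together they held 204 of the 16655 transcript spots of an array. The slides were oligonucleotide arrays read in 2 colours, and the cells were MEFs, fibroblasts grown from mouse embryos. In the first 2 arrays, cells stably transfected with a plasmid that expresses Dlx3, a homeobox transcription factor, were labelled with Cy5 and cells given an empty plasmid with Cy3. In the other 2 arrays, Dlx3-expressing cells transfected for 24 h were labelled with Cy5 and control MEFs with Cy3. Each group had 2 arrays, the second of which is named a biological repeat in its title. P-values measure only the spread between these arrays. The Dlx3 sample carried the same dye on every array, so any preference of a probe for one dye remains in its ratio. The promoter of the plasmid, and whether the stable cells were a clone or a pool, are not given in the sources used here.

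Housekeeping genes serve functions that most cells need at all times, such as energy supply, protein synthesis and folding, and the reading of DNA. On spotted arrays such genes are often printed repeatedly, because spots of one sequence that meet the same labelled RNA show how far position on the slide and the amount of printed DNA move a reading. A 2-colour ratio divides the channels of the same spot, so that the amount of printed DNA affects both channels together. The 12 genes cover glycolysis and respiration (Gapdh, Ldha, Cyc1), protein folding and turnover (Hsp90ab1, Hspa1a, Ubb), translation (Rpl5, Eif4a2), transcription and DNA topology (Tcea1, Top1, Tcf3) and the nuclear pore (Nup62). Of these, 8 were named through the RefSeq accession of the probe and 4 through its description. Those 4 were Tcf3, described as transcription factor E2a, Hspa1a, described as a heat shock protein of the 70 kDa family, Rpl5 and Tcea1. The files list the probes as NM_008084 (Gapdh), NM_010699 (Ldha), NM_025567 (Cyc1), NM_008302 (Hsp90ab1), M12571 (Hspa1a), NM_011664 (Ubb), AK008489 (Rpl5), NM_013506 (Eif4a2), M18209 (Tcea1), NM_009408 (Top1), BC006860 (Tcf3) and NM_053074 (Nup62). No probe sequence was read, so no position in the genome is given.

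The 17 spots of a gene were not spread at random. A slide held 32 blocks, in 4 columns and 8 rows of blocks, each with 24 columns and 23 rows of spots. For every gene, 16 spots lay in row 23, the last row of a block, with 4 spots in each of 4 neighbouring blocks, and 1 spot lay elsewhere among the other probes. Ubb, Tcf3 and Hsp90ab1 shared the last rows of blocks 1, 2, 5 and 6. Gapdh, Cyc1 and Top1 shared those of blocks 9, 10, 13 and 14. Hspa1a, Eif4a2 and Rpl5 shared those of blocks 17, 18, 21 and 22, and Ldha, Tcea1 and Nup62 those of blocks 25, 26, 29 and 30. A gene and its group of blocks therefore cannot be told apart over the last-row spots, and only the single spot can give a reading from another place. For Ubb, Tcf3 and Eif4a2 that spot lay in 1 of the gene's own 4 blocks (2, 1 and 21), so that it separates place from gene for the other 9 genes. The spots of a gene share the slide and the RNA, so they are repeated readings of 1 sample and not replicates of a condition.

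Over the 4 arrays the median raw foreground intensity of transcript spots ranged from 484 to 813 (Dlx3 channel) and from 456 to 865 (control channel), and 77.1 to 87.1% of transcript spots exceeded background. Markers of fibroblasts were read above the 95th percentile of the randomized spots in both channels of all 4 arrays for 3 of 6 measured genes, Col1a2, Pdgfrb and Vim. This held for 0 of 4 epithelial, 1 of 3 endothelial, 0 of 1 blood and 0 of 1 embryonic stem cell markers, and the endothelial one was Kdr. Over the epithelial list the summed intensity was 1102 to 2362 for the Dlx3 sample and 1066 to 2818 for the control. Over the endothelial list it was 19090 and 27311 for the Dlx3 sample, against 24383 and 37104 for the control, on the stable pair, and 8717 and 8868, against 10062 and 11595, on the transient pair. It was lower in the Dlx3 sample on all 4 arrays, in raw intensity, and their part in the results was not tested. The Dlx3 probe gave log2 ratios of Dlx3 over control of 0.055 and 0.23 for stable cells, against 0.14 and 0.56 for transiently transfected cells. Neither group mean passed the test (limma adjusted p = 0.396 in stable and 0.179 in transient cells), and which part of Dlx3 the probe reads, and whether the plasmid carries it, was not tested.

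Spots of one gene on one array differed far less in ratio than in brightness. The SD of the log2 ratio over the 17 spots had a median of 0.105 over the 48 combinations of gene and array, with a range of 0.0468 (Ubb, stable array 1) to 0.187 (Hspa1a, stable array 2). The SD of the log2 level, the mean log2 intensity of both channels, had a median of 0.83 and a range of 0.358 to 1.37. In the Dlx3 channel the brightest spot of a gene exceeded its dimmest by a median of 6.64 times, from 2.14 times for Tcf3 to 37.1 times for Hsp90ab1, both on transient array 2. Up to 70% of the pixels of that Hsp90ab1 spot were saturated, so the 37.1 may be too low. The channels moved together from spot to spot: over the 17 spots of a gene, log2 intensities of the Dlx3 and control channels correlated at 0.92 to 0.999, with a median of 0.994 over the 48 combinations. The ratio was still not free of brightness in every gene. Over the 17 spots, log2 ratio and log2 level correlated at -0.747 (Tcf3, stable array 2) to 0.90 (Gapdh, transient array 1). The spread over spots was also not small beside the ratios. The median absolute log2 ratio of the 12 genes was 0.127 in stable and 0.202 in transiently transfected cells. These are descriptions of spots that share slide, sample and printed DNA. Of all 816 spot readings, 256 (31.4%) lay over 0.1 from the mean log2 ratio of their gene on that array, 34 (4.17%) over 0.25 and 2 (0.245%) over 0.5. Both of the last were the Ldha spot in block 12, which lay 0.581 above the gene mean on stable array 1 and 0.503 above it on transient array 2.

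Most of this spread lay between blocks. Of the variance of the log2 ratio over the 16 last-row spots of a gene, a median of 75.4% lay between its 4 blocks (range 14.6 to 94%), and of the variance of the log2 level a median of 66.7%. Within a block, the 4 spots of a gene had a median SD of 0.0503 for the ratio and 0.358 for the level. The pattern of ratios over the 16 last-row spots recurred from array to array to a different degree in different genes. The median correlation over the 6 pairs of arrays was 0.785 for Tcea1, 0.764 for Nup62 and 0.746 for Ldha, which share their 4 blocks, and -0.349 for Gapdh, the lowest of the 12. These too are descriptions, over 16 spots that share print run and position.

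Each array was normalized by a smooth curve through all transcript spots (global loess), and the ratio of a gene is the mean over its spots. The 14610 probes above background were fitted together in limma, with a mean for the stable and a mean for the transient arrays, and a gene counts as called when its Benjamini-Hochberg adjusted p over those probes is under 0.05. All 12 genes passed the background filter. In stable cells 2 of the 12, Tcea1 and Nup62, passed, both lower in the Dlx3 sample, and no member passed as higher. Over all probes tested, 22.7% were called in stable cells, 11.6% as higher and 11.1% as lower, and 2 of 12 is too few to set apart from those shares. In transiently transfected cells 0 of 12 were called, against 0.144% of all probes, and 6 of the 12 had an unadjusted p under 0.05, as had 20.2% of all probes. In the difference between the groups 0 of 12 were called, against 0.24% of all probes, and 4 had an unadjusted p under 0.05, as had 19.5% of all probes. Leaving out either stable array gave 5 calls among the 12 in transiently transfected cells, where 8.82% of all probes were then called, and leaving out either transient array gave 0 calls in stable cells. In bulk RNA, fewer cells that express a gene and less RNA per cell cannot be told apart. The median log2 ratio over the 12 genes was -0.072 in stable cells, against 0.0066 over all probes tested. It was -0.20 in transiently transfected cells, with 11 of 12 genes below 0, against 0.0012 over all probes, of which 49.7% were below 0. The difference of stable minus transient ratios had a median of 0.080 over the 12 genes and 0.0088 over all probes.

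Below, levels are raw foreground intensities, given as mean ± SD over the 17 spots of a gene on arrays 1 and 2 of a group. They carry the scanner gain of each channel, and a level is compared between channels or places only within a gene. Gapdh, a glycolytic enzyme that is widely used as a reference transcript, was read with both signs. The spots of Gapdh read 21280 ± 11673 and 22940 ± 16289 in the Dlx3 channel of the stable arrays, against 14667 ± 8978 and 23066 ± 16451 in the control channel. On the transient arrays the Gapdh spots read 28581 ± 14879 and 34531 ± 24382 in the Dlx3 channel, against 33152 ± 15581 and 36431 ± 23594 in the control channel. Some pixels were saturated on 1, 1, 4 and 9 of the 17 Gapdh spots of stable arrays 1 and 2 and transient arrays 1 and 2. In the single spot in block 20, up to 91, 93, 43 and 96% of pixels were saturated, in the same order of arrays. The log2 ratio over the 17 spots was 0.65 ± 0.063 and 0.17 ± 0.10 on stable arrays 1 and 2, against -0.060 ± 0.10 and -0.079 ± 0.13 on transient arrays 1 and 2 (SD over spots). Both stable arrays lay above 0 and both transient arrays below it, and the stable arrays differed from each other by 0.475. The fitted Gapdh ratio was 0.41 (SE 0.12, adjusted p = 0.055) in stable cells and -0.070 (SE 0.12, adjusted p = 0.787) in transiently transfected cells, by limma. The difference between the groups was 0.48 (SE 0.17, limma adjusted p = 0.218). It was 0.718 without stable array 2 and 0.243 without stable array 1. The stable ratio alone was 0.649 without stable array 2 and 0.173 without stable array 1. With all 4 arrays the stable ratio passed with no background correction (limma adjusted p = 0.0496) and with median foreground (limma adjusted p = 0.0455). Among other settings, it did not pass with median centring (0.271, limma adjusted p = 0.176) or with the authors' deposited values (0.276, limma adjusted p = 0.204).

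The Gapdh spots also changed places in brightness between arrays. In the Dlx3 channel of transient array 1 the 4 spots of blocks 9 and 10 averaged 44720 and 34350, and those of blocks 13 and 14 averaged 14406 and 14463. On transient array 2 the order was turned, with 11280 and 9443 in blocks 9 and 10 and 63064 and 47008 in blocks 13 and 14. On these arrays the ratio was higher in the brighter pair of blocks. It was 0.049 and -0.029 in blocks 9 and 10 of transient array 1, and -0.18 and -0.12 in blocks 13 and 14. On transient array 2 it was -0.18 and -0.19 in blocks 9 and 10, and 0.095 and -0.074 in blocks 13 and 14. Over the 17 spots the log2 ratio and the log2 level of Gapdh correlated at -0.60 and 0.81 on stable arrays 1 and 2, and at 0.90 and 0.88 on the transient arrays, as a description of spots on the same slide. Pixels were saturated on 4 and 9 of the 17 spots of transient arrays 1 and 2, so brightness and ratio may be misread there. With not-found and saturated spots left out, the fitted transient ratio was -0.143, against -0.0697 with all spots. The part of saturation in this pattern was not tested. Cyc1, printed in the same blocks, also read brighter in blocks 9 and 10 on transient array 1 (2296 and 1618, with 979 and 876 in blocks 13 and 14) and dimmer there on transient array 2 (2342 and 1474, with 5044 and 4098).

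Ldha encodes the lactate dehydrogenase subunit that favours the conversion of pyruvate to lactate. The spots of Ldha read 6771 ± 2833 and 6192 ± 1559 in the Dlx3 channel of the stable arrays, against 5804 ± 1615 and 8978 ± 2122 in the control channel. In the transient pair the Ldha means were 10803 ± 3175 and 8709 ± 3095 in the Dlx3 channel, against 18866 ± 5980 and 14580 ± 5452 in the control channel. No Ldha spot was saturated, and the control channel was the brighter on every array except stable array 1. Its log2 ratio was 0.29 ± 0.18 and -0.38 ± 0.15 on stable arrays 1 and 2, against -0.62 ± 0.16 and -0.65 ± 0.19 on transient arrays 1 and 2. The stable arrays had opposite signs and differed by 0.669, the widest gap between arrays of a group among the 12 genes, whereas the transient arrays differed by 0.026. The fitted Ldha ratio was -0.044 (SE 0.15, adjusted p = 0.853) in stable cells and -0.63 (SE 0.15, adjusted p = 0.111) in transiently transfected cells, by limma. The difference between the groups was 0.59 (SE 0.22, limma adjusted p = 0.225). It was 0.923 without stable array 2 and 0.255 without stable array 1. In stable cells the Ldha ratio was -0.378 without stable array 1 and 0.291 without stable array 2. In transiently transfected cells the Ldha ratio was called at the same -0.633 (limma adjusted p = 0.0203) when those arrays were fitted alone. The fit with 1 stable array is the same for this ratio.

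Ldha also had the widest gap between its single spot and its last-row spots. The spot in block 12 gave log2 ratios of 0.87 and 0.040 on the stable arrays, where the 16 last-row spots averaged 0.25 and -0.40. The transient readings of the single spot were -0.13 and -0.14, where the last-row spots averaged -0.65 and -0.68. It lay above all 16 last-row spots on 4 of 4 arrays. The transient ratio of Ldha thus depended on which spots were read, with -0.136 (limma adjusted p = 0.721) from the single spot. Block 12 also read high for ordinary transcript spots. Its median log2 ratio was the highest of all blocks for stable array 1 (0.126) and for transient array 2 (0.107). With block medians subtracted, the mean gap between the single spot of Ldha and its last-row spots was 0.206, against 0.529 without.

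Cyc1 encodes cytochrome c1, a subunit of respiratory complex III. The spots of Cyc1 read 2801 and 3192 in the Dlx3 channel of the stable arrays, against 3164 and 4126 in the control channel. Transient arrays 1 and 2 gave Cyc1 means of 1500 and 3168 in the Dlx3 channel, against 1786 and 3558 in the control channel. The brightest Cyc1 spot exceeded the dimmest in the Dlx3 channel by 2.64 and 4.51 times on the stable arrays and by 3.48 and 7.6 times on the transient ones. The ratio (log2) was -0.11 ± 0.072 and -0.27 ± 0.060 on stable arrays 1 and 2, against -0.20 ± 0.051 and -0.076 ± 0.071 on transient arrays 1 and 2. All 4 arrays lay below 0, and Cyc1 spots repeated closely, with an SD of at most 0.072. The fitted Cyc1 ratio was -0.19 (SE 0.083, adjusted p = 0.14) in stable cells and -0.14 (SE 0.083, adjusted p = 0.408) in transiently transfected cells, by limma. Neither passed the test.

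Hsp90ab1 encodes the constitutive cytosolic chaperone HSP90 beta. The spots of Hsp90ab1 read 8221 ± 9988 and 6102 ± 11867 in the Dlx3 channel of the stable arrays, against 6858 ± 8413 and 6490 ± 11710 in the control channel. For Hsp90ab1 the transient arrays read 6775 ± 4641 and 6125 ± 11908 in the Dlx3 channel, against 9459 ± 6220 and 7462 ± 13758 in the control channel. In log2 terms its ratio was 0.32 ± 0.094 and -0.059 ± 0.11 on stable arrays 1 and 2, against -0.34 ± 0.069 and -0.28 ± 0.068 on transient arrays 1 and 2. The stable arrays had opposite signs and the transient arrays were both below 0. The fitted Hsp90ab1 ratio was 0.13 (SE 0.11, adjusted p = 0.396) in stable cells and -0.31 (SE 0.11, adjusted p = 0.183) in transiently transfected cells, by limma. The difference between the groups was 0.44 (SE 0.15, limma adjusted p = 0.21). The transient ratio was called (limma adjusted p = 0.0443) when the transient arrays were fitted alone, the same fit as with either stable array left out.

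The large SDs of the Hsp90ab1 levels came from 1 spot. In the Dlx3 channel the spot in block 23, outside the last rows, read 43607 and 51947 on stable arrays 1 and 2, against 23690 and 52030 on the transient arrays. The brightest of the 16 last-row spots read 14465, 5421, 8763 and 7567 on the same arrays, so that there was no overlap. On the log2 scale the single spot was 2.08 to 4.07 brighter than the mean of the last-row spots. Its ratio differed from theirs by -0.0075 and 0.34 on the stable pair and by 0.096 and 0.14 on the transient pair. In this spot up to 49% of pixels were saturated on stable array 2 and up to 70% on transient array 2, so its brightness there may be read too low. Read alone, it gave a stable ratio of 0.285 (limma adjusted p = 0.0439), against 0.13 over all 17 spots.

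Hspa1a encodes a stress-inducible chaperone of the HSP70 family. The spots of Hspa1a read 631 ± 581 and 963 ± 845 in the Dlx3 channel of the stable arrays, against 666 ± 605 and 1172 ± 1192 in the control channel. On the transient arrays the Hspa1a spots read 548 ± 593 and 877 ± 1155 in the Dlx3 channel, against 636 ± 772 and 982 ± 1351 in the control channel. Most Hspa1a spots were dim: of 17, only 2, 1, 2 and 2 exceeded the 95th percentile of the randomized spots in the Dlx3 channel of stable arrays 1 and 2 and transient arrays 1 and 2. Block 18 had the highest mean on every array, at 1406 and 1847 in the Dlx3 channel of the stable arrays and 1376 and 2284 in that of the transient arrays. The means of its other 3 blocks lay between 218 and 802. The log2 ratio of Hspa1a was -0.0098 ± 0.17 and -0.082 ± 0.19 on stable arrays 1 and 2, against -0.16 ± 0.15 and -0.092 ± 0.13 on transient arrays 1 and 2, with the widest SD over spots of the 12 genes on stable array 2. The fitted Hspa1a ratio was -0.046 (SE 0.075, adjusted p = 0.683) in stable cells and -0.13 (SE 0.075, adjusted p = 0.395) in transiently transfected cells, by limma. A probe for a closely related gene, described as heat shock protein, 70 kDa 1, gave -0.51 (limma adjusted p = 0.0204) in stable and 0.12 (limma adjusted p = 0.542) in transiently transfected cells. These genes are near-identical in sequence, so RNA of one may bind the probe of the other, and how much did so was not tested.

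Ubb is a polyubiquitin gene, 1 of the sources of the ubiquitin tag that marks proteins for degradation. The spots of Ubb read 17933 ± 4285 and 18302 ± 4854 in the Dlx3 channel of the stable arrays, against 17466 ± 3981 and 24922 ± 6992 in the control channel. In the transient pair the Ubb means were 11985 ± 3185 and 13933 ± 4122 in the Dlx3 channel, against 11602 ± 3366 and 14816 ± 4648 in the control channel. Its log2 ratio was 0.12 ± 0.047 and -0.23 ± 0.068 on stable arrays 1 and 2, against 0.23 ± 0.084 and 0.010 ± 0.072 on transient arrays 1 and 2. The stable arrays had opposite signs and differed by 0.351, and the transient arrays differed by 0.219. The fitted Ubb ratio was -0.052 (SE 0.11, adjusted p = 0.75) in stable cells and 0.12 (SE 0.11, adjusted p = 0.592) in transiently transfected cells, by limma. Ubb was the single gene of the 12 with a positive fitted ratio in transiently transfected cells.

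Rpl5 encodes a protein of the large ribosomal subunit that carries a small ribosomal RNA. The spots of Rpl5 read 12914 ± 7471 and 20499 ± 8821 in the Dlx3 channel of the stable arrays, against 12987 ± 7294 and 22111 ± 9766 in the control channel. Transient arrays 1 and 2 gave Rpl5 means of 7005 ± 6248 and 15513 ± 8663 in the Dlx3 channel, against 10622 ± 8086 and 20634 ± 11939 in the control channel. The ratio (log2) was 0.072 ± 0.096 and 0.11 ± 0.067 on stable arrays 1 and 2, against -0.48 ± 0.11 and -0.30 ± 0.086 on transient arrays 1 and 2. The stable arrays were both slightly above 0 and the transient arrays both below, with no overlap. The fitted Rpl5 ratio was 0.091 (SE 0.081, adjusted p = 0.439) in stable cells and -0.39 (SE 0.081, adjusted p = 0.0933) in transiently transfected cells, by limma. The difference between the groups was 0.48 (SE 0.12, limma adjusted p = 0.151), with an unadjusted p of 0.00542, the lowest of the 12 genes in that comparison. The transient ratio was called (limma adjusted p = 0.0407) with the transient arrays alone, the same fit as without either stable array. Read from the single spot in block 12, the stable ratio was 0.273 (limma adjusted p = 0.0471) and the transient ratio -0.116 (limma adjusted p = 0.437). Ordinary transcript spots of block 12 also read high, with a median log2 ratio of 0.126 for stable array 1 and 0.141 for stable array 2. With the median of its block subtracted, the single spot gave 0.189 and 0.0906 there. The last-row spots, treated likewise, gave 0.101 and 0.136.

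Eif4a2 encodes an RNA helicase that helps ribosomes start on messenger RNA. The spots of Eif4a2 read 2111 ± 773 and 3380 ± 1050 in the Dlx3 channel of the stable arrays, against 2392 ± 903 and 4144 ± 1515 in the control channel. For Eif4a2 the transient arrays read 986 ± 497 and 2055 ± 1106 in the Dlx3 channel, against 1080 ± 595 and 2131 ± 1178 in the control channel. In log2 terms its ratio was -0.10 ± 0.089 and -0.16 ± 0.086 on stable arrays 1 and 2, against -0.087 ± 0.059 and 0.010 ± 0.072 on transient arrays 1 and 2. All values lay close to 0, and 3 of the 4 were below it. The fitted Eif4a2 ratio was -0.13 (SE 0.076, adjusted p = 0.247) in stable cells and -0.039 (SE 0.076, adjusted p = 0.819) in transiently transfected cells, by limma. Neither passed the test.

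Tcea1 encodes the elongation factor TFIIS, which restarts stalled RNA polymerase II. The spots of Tcea1 read 4199 ± 5617 and 6171 ± 8786 in the Dlx3 channel of the stable arrays, against 5371 ± 6447 and 8350 ± 10801 in the control channel. On the transient arrays the Tcea1 spots read 5422 ± 6994 and 6761 ± 9699 in the Dlx3 channel, against 7286 ± 9488 and 8477 ± 11308 in the control channel. As for Hspa1a, 1 block had the highest mean on every array, at 11630 and 17189 in block 26 of the stable arrays and 13903 and 19875 in that of the transient arrays (Dlx3 channel). Its other 3 blocks lay between 1507 and 3570. The log2 ratio of Tcea1 was -0.36 ± 0.14 and -0.37 ± 0.14 on stable arrays 1 and 2, against -0.28 ± 0.12 and -0.33 ± 0.15 on transient arrays 1 and 2. All 4 arrays were below 0, and the arrays of a group differed by 0.0141 in stable and 0.051 in transiently transfected cells. The SE of these differences, taken from the spread over spots, was 0.0476 and 0.0457. It counts the spots as independent, which they are not, so it gives no test. Of the 12 genes, 5 differed by over 2 such SE in stable and 6 in transiently transfected cells. The fitted Tcea1 ratio was -0.36 (SE 0.073, adjusted p = 0.0221) in stable cells and -0.30 (SE 0.073, adjusted p = 0.112) in transiently transfected cells, by limma. The stable value is a fall of 1.29-fold. The call was lost without stable array 2, at a ratio of -0.356. It was also lost with the stable arrays fitted alone (limma adjusted p = 0.0684), the same fit as without either transient array. The transient ratio was called (limma adjusted p = 0.0467) with the transient arrays alone, the same fit as without either stable array.

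Top1 encodes DNA topoisomerase I, which relieves the twist that builds up ahead of polymerases. The spots of Top1 read 902 ± 849 and 1283 ± 993 in the Dlx3 channel of the stable arrays, against 961 ± 746 and 1415 ± 1027 in the control channel. In the transient pair the Top1 means were 729 ± 745 and 1142 ± 913 in the Dlx3 channel, against 901 ± 986 and 1326 ± 1041 in the control channel. Of its 17 spots, 3, 2, 2 and 3 exceeded the 95th percentile of the randomized spots in the Dlx3 channel of stable arrays 1 and 2 and transient arrays 1 and 2. Block 10 had the highest mean on every array, at 2042 and 2382 in the Dlx3 channel of the stable arrays and 1701 and 2144 in that of the transient arrays. Blocks 10, 18 and 26, where Top1, Hspa1a and Tcea1 read highest, lie in the same column of blocks. The log2 ratio of Top1 was -0.14 ± 0.15 and -0.10 ± 0.12 on stable arrays 1 and 2, against -0.31 ± 0.070 and -0.19 ± 0.088 on transient arrays 1 and 2. All 4 arrays were below 0. The fitted Top1 ratio was -0.12 (SE 0.077, adjusted p = 0.269) in stable cells and -0.25 (SE 0.077, adjusted p = 0.16) in transiently transfected cells, by limma. Neither passed the test.

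Tcf3 encodes a basic helix-loop-helix transcription factor that partners tissue-specific factors of the same class. The spots of Tcf3 read 954 ± 360 and 830 ± 327 in the Dlx3 channel of the stable arrays, against 1028 ± 358 and 994 ± 428 in the control channel. Transient arrays 1 and 2 gave Tcf3 means of 761 ± 186 and 790 ± 173 in the Dlx3 channel, against 852 ± 248 and 886 ± 249 in the control channel. Its spots were dim, and of 17 only 1, 0, 0 and 0 exceeded the 95th percentile of the randomized spots in the Dlx3 channel of stable arrays 1 and 2 and transient arrays 1 and 2. The log2 ratio of Tcf3 was -0.064 ± 0.11 and -0.12 ± 0.16 on stable arrays 1 and 2, against -0.16 ± 0.090 and -0.15 ± 0.10 on transient arrays 1 and 2, all below 0. The fitted Tcf3 ratio was -0.091 (SE 0.074, adjusted p = 0.391) in stable cells and -0.15 (SE 0.074, adjusted p = 0.309) in transiently transfected cells, by limma. Neither passed the test, and for a gene this close to the randomized spots a difference may not be detectable.

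Nup62 encodes a protein of the central channel of the nuclear pore. The spots of Nup62 read 1427 ± 475 and 1763 ± 584 in the Dlx3 channel of the stable arrays, against 1770 ± 406 and 2284 ± 551 in the control channel. For Nup62 the transient arrays read 1333 ± 286 and 1463 ± 683 in the Dlx3 channel, against 1785 ± 515 and 1959 ± 741 in the control channel. Its log2 ratio was -0.28 ± 0.15 and -0.32 ± 0.15 on stable arrays 1 and 2, against -0.35 ± 0.14 and -0.41 ± 0.15 on transient arrays 1 and 2. All 4 arrays were again below 0. Over the 95th percentile of the randomized spots in the Dlx3 channel lay 4 and 1 of 17 spots on the stable pair and 14 and 3 on the transient pair. The fitted Nup62 ratio was -0.30 (SE 0.074, adjusted p = 0.0371) in stable cells and -0.38 (SE 0.074, adjusted p = 0.0879) in transiently transfected cells, by limma. The stable value is a fall of 1.23-fold. The call was lost without stable array 2, at a ratio of -0.277. It was also lost with the stable arrays fitted alone (limma adjusted p = 0.104), the same fit as without either transient array. The transient ratio was called (limma adjusted p = 0.0337) with the transient arrays alone, the same fit as without either stable array.

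Tcea1 and Nup62, the 2 called genes, lay in the part of the slide where ordinary probes also read low. Over the ordinary transcript spots of a block, the median log2 ratio was lowest in block 29 on all 4 arrays, at -0.40 and -0.30 on stable arrays 1 and 2, against -0.24 and -0.34 on the transient arrays. Block medians spanned 0.526 and 0.477 on the stable pair and 0.35 and 0.45 on the transient pair, and they correlated at 0.868 to 0.966 between pairs of arrays, over 32 blocks that share probes and print positions. In blocks 25, 26, 29 and 30, 36.7% of 1754 tested probes other than the 12 genes were called lower in stable cells and 2.91% higher. In the other 28 blocks 7.65% of 12844 were called lower and 12.8% higher. In block 29 the spots of Tcea1 averaged -0.49 and -0.56 and those of Nup62 -0.43 and -0.46 on the stable arrays. In block 26, where ordinary medians were -0.16 and -0.11, Tcea1 averaged -0.26 and -0.25 and Nup62 -0.19 and -0.18. Over all 12 genes, the deviation of a gene's block mean from its own mean correlated with the deviation of the ordinary block medians at 0.647 and 0.465 on the stable pair and 0.676 and 0.666 on the transient pair (48 gene and block pairs each), as a description.

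The single spots of Ldha, Tcea1 and Nup62 lay outside these blocks. For Tcea1 it lay in block 18 and gave 0.016 and -0.19 for stable cells, against 0.025 and -0.050 for transiently transfected cells. For Nup62 it lay in block 32 and gave 0.10 and 0.077 for stable cells, against -0.076 and -0.063 for transiently transfected cells. From this spot alone the fitted stable ratio was -0.086 (limma adjusted p = 0.484) for Tcea1 and 0.090 (limma adjusted p = 0.392) for Nup62, and for Nup62 the sign was opposite to that of the mean over 17 spots. Over Ldha, Tcea1 and Nup62 the single spot exceeded the last-row mean on 12 of 12 gene and array pairs, by 0.194 to 0.617 with a mean of 0.4. The mean gap over the 4 arrays was 0.24 for Rpl5, 0.20 for Hspa1a, 0.14 for Hsp90ab1, 0.034 for Gapdh, -0.011 for Top1 and -0.022 for Cyc1. For Ubb, Tcf3 and Eif4a2, whose single spot lay in 1 of their own blocks, it was 0.037, 0.025 and 0.031. With 4 arrays an exact two-sided sign-flip test cannot give a p below 0.125 for a gene, so no single gene could pass, and the adjusted p was 0.214 at the lowest.

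When each block was given its own loess curve (print-tip loess), the mean gap for Ldha, Tcea1 and Nup62 was 0.1, against 0.4 with 1 curve per array. Under that setting the stable ratios were -0.14 (limma adjusted p = 0.207) for Tcea1 and -0.088 (limma adjusted p = 0.434) for Nup62, and 0 of the 12 genes were called in stable cells, against 17.3% of all probes. The transient ratios under print-tip loess were -0.087 (limma adjusted p = 0.605) for Tcea1, -0.163 (limma adjusted p = 0.367) for Nup62 and -0.406 (limma adjusted p = 0.325) for Ldha. When the median of the ordinary spots of each block was subtracted instead, an alternative chosen after the data were seen, they were -0.14 (limma adjusted p = 0.212) and -0.077 (limma adjusted p = 0.485), again with 0 of 12 called, against 17.1% of all probes. The 11 of 12 genes below 0 in transiently transfected cells became 10 with print-tip loess and 11 with block medians subtracted, with medians of -0.15 and -0.15, and 9 when the single spots alone were read, with a median of -0.093.

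Arrays of a group differed by up to 0.669 (Ldha) in stable and up to 0.219 (Ubb) in transiently transfected cells. The median absolute difference between arrays of a group was 0.0652 in stable and 0.0638 in transiently transfected cells over the 12 genes, against 0.157 and 0.0961 over the other probes, which are read from 1 spot. The difference between these medians was not tested.

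Genes printed on 1 spot were read from lists of common reference, glycolysis and cytoskeleton genes, over the 6678 probes with a symbol from the RefSeq table. Among common reference genes, 21 probes of the 40 listed genes were tested outside the 12. In stable cells 3 were called higher and 4 lower, with a median of -0.077 against 0.0066 over all probes, of which 11.6% were called higher and 11.1% lower. In transiently transfected cells 0 were called by limma, and 9 of 21 had an unadjusted p under 0.05, as had 20.2% of all probes. The genes called with the largest ratios in stable cells were Tfrc, the transferrin receptor, at -1.15 (limma adjusted p = 0.00785), the lysosomal enzyme gene Gusb at 0.69, the ribosomal protein gene Rpl13a at 0.53, B2m, the light chain of MHC class I, at 0.52, the actin-severing factor Cfl1 at -0.42 and the proteasome gene Psmb2 at -0.41. For the 20 glycolysis genes 13 probes were tested, and 7 were called higher and 2 lower in stable cells, against the same 11.6% and 11.1% of all probes, with a median of 0.50. The enolase gene Eno2 was at 1.20 (limma adjusted p = 0.00389), the lactate dehydrogenase gene Ldhb at 0.88, the phosphofructokinase genes Pfkl at 0.75 and Pfkm at 0.68 and the aldolase gene Aldoa at 0.71, while the enolase gene Eno3 was at -0.69.

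In transiently transfected cells 0 of the 13 glycolysis probes were called by limma (4 at an unadjusted p under 0.05, against 20.2% of all probes), with a median of -0.027. In the difference between the groups 1 of the 13 was called, against 0.24% of all probes. It was Hk2, a hexokinase that takes the first step of glycolysis. Hk2 was at 0.68 and 0.55 for stable cells, against -0.53 and -0.47 for transiently transfected cells, a difference of 1.11 (limma adjusted p = 0.0304). Gapdh and Ldha, the many-spot genes of this pathway, were at 0.41 and -0.044 in stable cells, and neither was called. For the 26 cytoskeleton genes 13 probes were tested. In stable cells 0 were called higher and 2 lower, against 11.6% and 11.1% of all probes. The 2 were the neuronal tubulin gene Tubb3 at -0.89 (limma adjusted p = 0.0156) and Cfl1, and the list had a median of -0.12. By limma 0 of the 13 were called in transiently transfected cells and 0 in the difference between the groups, with 3 and 3 at an unadjusted p under 0.05, against 20.2% and 19.5% of all probes. These lists hold probes from many blocks, and their values carry the block differences described above.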

How the data were processed

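Total RNA was purified on RNeasy columns, and dyes were attached by aminoallyl chemistry, per the labels. The deposited scanner tables give foreground and local background intensity at 635 nm (Cy5, Dlx3) and 532 nm (Cy3, control), as written by GenePix Pro 5.0.0.49 per the file headers, with no normalization. Per the file headers, a further column holds the percent of pixels that were saturated in each spot. The authors' deposited value table holds a signed score per spot whose normalization is not given in the sources used here. Against the scanner values it ran as minus the linear ratio of control over Dlx3, with column medians of -1.001, -1.007, -1.002 and -1.002, and it served as an alternative alone.

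The log2 ratio of the Dlx3 to the control channel came from limma 3.58.1 (R 4.3.3): normexp background correction with an offset of 50 on mean foreground and median background, then global loess per array with control spots at weight 0. Spots marked bad were left out. Not-found and saturated spots were kept. The value of a probe is the mean over its spots. A probe entered the tests if its median foreground lay over 2 background SDs above the median background (either channel) on over 50% of its spots, on 2 or more of the 4 arrays. The model (lmFit and eBayes, 1 mean per group) had 2 residual and 4.2 prior degrees of freedom, and its p-values are two-sided. The steps were tested on simulated data. The simulated ratios held no block effect and no saturation, so that test could not show how either affects a call. Every probe on 10 or more spots is named, with probes of related genes and, of the lists, up to 6 called genes per list and comparison in order of size. The members, lists and tests were chosen with earlier results of these data known. Symbols came from a RefSeq table for 6678 of 6951 RefSeq accessions. Arrays are few, and their number limits the precision. Alternatives covered background, normalization, spots, filter, arrays and the authors' values.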

Additional observations from a re-analysis of the deposited data

Results flagged for a closer look

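Rpl5 and Gapdh stood apart because both stable arrays lay above 0 and both transient arrays below 0. For Rpl5 the log2 ratios were 0.072 and 0.11 in stable cells, against -0.48 and -0.30 in transiently transfected cells, and the difference of stable minus transient was 0.48 (limma adjusted p = 0.151, 2 arrays per group). For Gapdh they were 0.65 and 0.17 in stable cells, against -0.060 and -0.079 in transiently transfected cells, with a difference of 0.481 (limma adjusted p = 0.218). Neither difference passed the test over all probes. Gapdh spots with saturated pixels numbered 1 and 1 of 17 in the stable pair and 4 and 9 of 17 in the transient pair, and with saturated spots left out the difference was 0.56 (limma adjusted p = 0.177). The sign pattern held for the mean over the 17 spots, but not for every spot, block or setting. Last-row spots of Gapdh averaged 0.049 in block 9 of transient array 1 and 0.095 in block 13 of transient array 2. Those of Rpl5 averaged -0.0073 in block 21 of stable array 1. The single Gapdh spot in block 20 was above 0 on both transient arrays (0.11 and 0.074), with a difference of 0.224. That spot was heavily saturated, in up to 43% of its pixels on transient array 1 and up to 96% on transient array 2. For the stable pair these shares were 91 and 93%. Its ratios may be misread for that reason, so the sign it gives is uncertain. The stable Rpl5 ratio was -0.0541 with median centring and -0.0741 with the authors' deposited values.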

How the results depend on the processing

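The count of 2 many-spot genes called in stable cells, where 22.7% of all probes were called, moved with the setting, as did that share. It became 1 (Tcea1) with plain background subtraction (14.2% of all probes) and 1 (Tcea1) with scaling between arrays (13.5%). It became 0 with print-tip loess (17.3%), with block medians subtracted (17.1%) and with the stable arrays alone (8.39%). It became 3 with no background correction (24.9%) and 3 with median foreground (23.3%), through Gapdh. With blocks 17 to 32 alone (22.7%) it became 3 through Hsp90ab1. It was 1 (Rpl5) with blocks 1 to 16 alone, where the layout leaves 8 of the 12 genes with a reading, as it does in blocks 17 to 32. The single spot alone gave 2 calls, of Hsp90ab1 and Rpl5, and these are the same readings as in the 2 block settings. The single spot is the only Hsp90ab1 spot in blocks 17 to 32 and the only Rpl5 spot in blocks 1 to 16. In the Hsp90ab1 spot up to 49% of pixels were saturated on stable array 2. Leaving out an array gave 0 to 3. In transiently transfected cells the count of 0 became 4 with median centring and 4 with scaling between arrays (Ldha, Nup62, Rpl5 and Tcea1 in both), 5 with the transient arrays alone, and 0 to 5 on leaving out an array. The share of all probes called there moved too, to 4.41, 10.9 and 8.82% in the first 3 of these, against 0.144%. For stable minus transient the count of 0 ranged from 0 to 2 on leaving out an array. Where 1 array of a group remained, it was assumed to vary like the other group. The values of the other group were then those of its arrays fitted alone. The median SD of the log2 ratio over spots, 0.105, was 0.0745 with print-tip loess, 0.0766 with block medians subtracted, 0.0923 over last-row spots alone, 0.0938 as a median absolute deviation and 0.095 without not-found and saturated spots. Leaving out an array gave 0.0994 to 0.106. The Nup62 ratio in stable cells reversed to 0.0902 from its single spot. Of 488 alternative values of single genes in either group, 18 had the opposite sign, in 10 of 24 gene and group pairs. Many of the 488 repeat the main ratio by construction, so the share of opposite signs does not measure stability. Examples are robust eBayes, no filter on dim probes, a group fitted alone, and fits without an array of the other group. No Tcea1, Cyc1, Top1 or Tcf3 value was among the 18 of opposite sign. Where no cause is named, the cause was not tested. Last-row spots alone, the single spot alone and block medians subtracted were chosen after seeing the data. No paired analysis was possible because the labels give no replicate numbers that link arrays of different groups. Dim spots limit what Tcf3, Hspa1a, Top1 and Nup62 can show. For Nup62, 4 and 1 of 17 spots exceeded the randomized 95th percentile in the Dlx3 channel of stable arrays 1 and 2. On transient arrays 1 and 2 these were 14 and 3.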
